A study of Homo sapiens with 4 samples.

Results

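The PLEKHA genes encode a family of proteins with a pleckstrin homology (PH) domain, a fold that binds phosphoinositide lipids in cell membranes. All 8 entries of the count and FPKM tables with the symbols PLEKHA1 to PLEKHA8 were taken, of 23444 gene entries in all, and all 8 passed the filter on low counts. The family was chosen from the measured change of PLEKHA6, whose fitted rise in the comparison described here ranked 1 of the 11233 genes that averaged 5 CPM or more (CPM is a gene's counts scaled to library size). Among all 15293 genes tested, the rise of PLEKHA6 ranked 29. The other members were chosen by symbol alone. The changes of the members are therefore described without p-values, and nothing rests on PLEKHA6 having been called.

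The RNA came from U87-MG cells, a human line established from a glioblastoma. In 2 libraries, named shCON, the cells carried a negative control hairpin, and in the other 2, named shMAGED2, a short hairpin RNA against MAGED2, a gene of the melanoma antigen family. The series text describes a stable knockdown, while the treatment protocol names hairpins against ZDHHC15 and transient transfection with a lipid reagent. Which protocol applies was not resolved, and neither text says how many hairpins or clones were used. In RNA of whole cultures, fewer cells that express a gene and less RNA per cell cannot be told apart. The libraries of a group are not said to be separate cultures, so that the errors here measure the spread between libraries, which may be technical.

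Phosphoinositides are made and removed by lipid kinases and phosphatases, and each form marks particular membranes. PLEKHA1 and PLEKHA2, also named TAPP1 and TAPP2, bind phosphatidylinositol 3,4-bisphosphate, a lipid formed downstream of PI 3-kinase. PLEKHA3 and PLEKHA8, also named FAPP1 and FAPP2, bind phosphatidylinositol 4-phosphate at the trans-Golgi network, and PLEKHA8 also carries a glycolipid transfer domain. PLEKHA4, PLEKHA5 and PLEKHA6 form the PEPP group. PLEKHA7, related to the PEPP group, is best known at the adherens junctions of epithelial cells, where it binds p120 catenin.

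Total counts were 28673774 to 36234336 per library, so that 3 counts, the limit that a count of 0 allows, correspond to 0.0817 to 0.102 CPM (counting error only). MAGED2 (ENSG00000102316; chromosome X, 54807599 to 54816012 in hg38, plus strand) fell from 176.3 ± 2.56 to 19.8 ± 2.68 CPM (SD, n = 2 per group), leaving 11.2% of the control level. Its adjusted p by edgeR's quasi-likelihood test, with Benjamini-Hochberg adjustment over all genes tested, was 0.000654. ZDHHC15 had 0 counts in all 4 libraries. The shMAGED2 libraries differed from each other more than the shCON libraries did, with a chi-square per degree of freedom of 89.5 against 7.42 over genes.

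PLEKHA6 was higher and PLEKHA7 was lower in shMAGED2 cells, and the other 6 members lay within 0.5 of 0 on the log2 scale. At an adjusted p under 0.05 in edgeR, 1 member rose, PLEKHA6, beside 12.3% of all 15293 genes tested. The member that fell was PLEKHA7, beside 11.6% of all genes, and 23.9% of all genes passed in either direction. Nothing is read from these counts, since the family was chosen on this comparison. The number of members that passed fell without either shCON library and rose without either shMAGED2 library. The number of all genes that passed moved the same way in these fits. The median log2 change of the 8 members was -0.06, against 0.003 over all genes tested. In the CPM of the single libraries, the groups did not overlap for 5 members. Of these, PLEKHA4 and PLEKHA6 were higher in both shMAGED2 libraries (33.0% of all genes were), and PLEKHA1, PLEKHA7 and PLEKHA8 were lower (33.0% of all genes). Over both directions, 66.0% of all genes had groups that did not overlap.

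**Figure D1:**
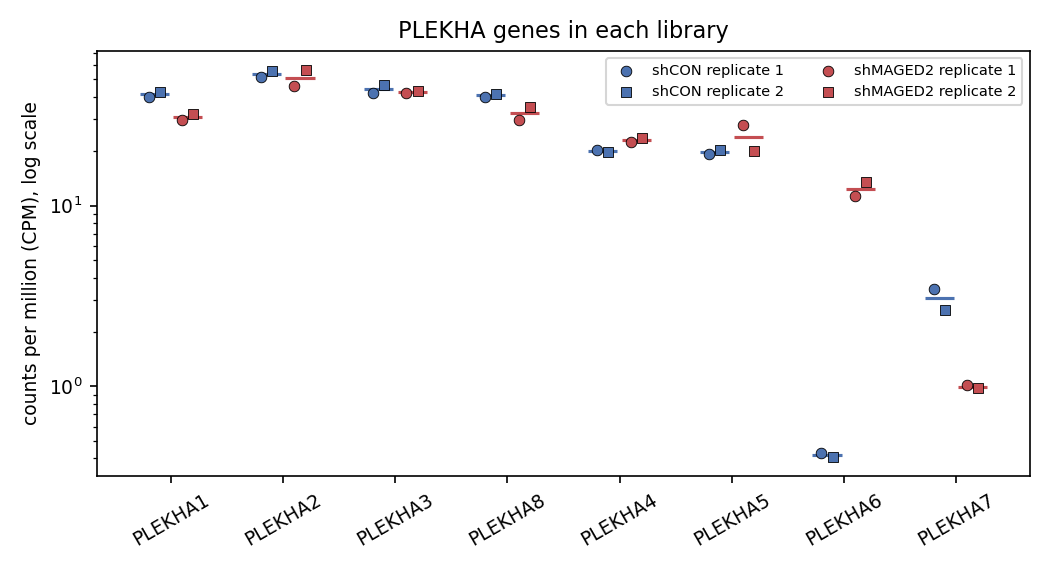
Level of each PLEKHA gene in the 4 libraries, in CPM on a log axis, with circles for replicate 1, squares for replicate 2 and a line at the mean of each group. PLEKHA6 stands at 0.430 and 0.409 CPM in shCON and at 11.2 and 13.4 CPM in shMAGED2, while PLEKHA7 stands lower in both shMAGED2 libraries than in both shCON libraries.

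PLEKHA6 (ENSG00000143850) lies on the minus strand of chromosome 1, from 204218851 to 204377665 in hg38 (GENCODE 29), and its exons overlap no other annotated gene. The annotation lists 5 transcripts of it, 4 of them coding. The window just before 1 annotated start of PLEKHA6 is shown because this member moved most. It stands beside the matching window of PLEKHA5, a PEPP member whose groups overlapped. Both are the 250 bases before a transcription start in RefSeq (GRCh38.p14), written 5′ to 3′ on the strand of the gene. They lie at chr1:204359930-204360179 on the minus strand and chr12:19129483-19129732 on the plus strand. Other coding transcripts of PLEKHA6 start at 204377665 and 204307395, and which start these cells used was not tested. Capitals mark exact matches to the E-box CACGTG in the first and to the GC box GGGCGG or its reverse complement CCGCCC in the second.
PLEKHA6: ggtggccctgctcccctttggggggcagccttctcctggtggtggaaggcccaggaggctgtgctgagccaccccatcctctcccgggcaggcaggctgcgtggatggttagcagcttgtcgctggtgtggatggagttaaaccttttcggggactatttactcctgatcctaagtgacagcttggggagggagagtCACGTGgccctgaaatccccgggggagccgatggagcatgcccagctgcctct
PLEKHA5: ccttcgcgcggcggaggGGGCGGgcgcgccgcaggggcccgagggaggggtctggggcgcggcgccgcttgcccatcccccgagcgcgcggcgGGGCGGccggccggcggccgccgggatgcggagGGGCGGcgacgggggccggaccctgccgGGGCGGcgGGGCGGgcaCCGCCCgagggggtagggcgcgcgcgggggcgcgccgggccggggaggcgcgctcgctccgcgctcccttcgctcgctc
The first holds 1 CACGTG, whose first base lies 53 bases before the start, and no GGGCGG on either strand. A CACGTG stood in 6.35% of the 35114 such windows in the table, and a GGGCGG on either strand in 42.6%. The second holds 6 matches to GGGCGG, counting both strands. TATAAA (10.7% of windows), CCAAT (32.0%) and TGACGTCA (1.65%), searched on both strands, stood in neither. A match describes the letters only.

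The 2 windows differ in base composition. The PLEKHA6 window has 62.4% G or C, 7 CG dinucleotides and an observed-to-expected CG ratio of 0.29, which is higher than in 32.3% of all windows. The PLEKHA5 window, at 1 of 3 listed starts, has 87.6% G or C, 50 CG dinucleotides and a ratio of 1.07, higher than in 95.9% of windows. In G or C, the PLEKHA6 window is higher than 60.3% of all windows and the PLEKHA5 window than 99.9%, so that PLEKHA5 is the extreme of the 2. Windows were matched for 5 members in the table. PLEKHA1, PLEKHA3 and PLEKHA8 had ratios of 1.02, 0.79 and 1.09, so that PLEKHA6 had the lowest of the 5, and CACGTG stood in its window only. PLEKHA2, PLEKHA4 and PLEKHA7 were not matched.

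PLEKHA6 had 15 and 12 counts in shCON replicates 1 and 2, and 331 and 493 counts in shMAGED2 replicates 1 and 2. Scaled to library size, this was 0.430 and 0.409 CPM against 11.2 and 13.4 CPM. The transcript was thus counted at a low level in both control libraries and at a moderate level in both knockdown libraries, with a gap many times wider than the spread within either pair. The fitted log2 change was 4.86 (SE 0.27). The ratio of summed counts, scaled to library size, was 29.6, with a 95% interval from counting error alone of 20.2 to 45.2 (exact conditional binomial), so the 27 control counts set its precision. In the deposited FPKM values, fragments scaled to gene length and library size, PLEKHA6 stood at 0.0556 and 0.0518 in shCON and at 2.92 and 3.45 in shMAGED2. The difference of means was 59.2-fold in FPKM and 29.4-fold in CPM.

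PLEKHA7 (ENSG00000166689), the junctional member, lies on the minus strand of chromosome 11, from 16777317 to 17014443. It had 121 and 78 counts in shCON and 30 and 36 in shMAGED2, or 3.47 and 2.66 CPM against 1.02 and 0.980 CPM. Both knockdown libraries were below both controls, and the shCON libraries were the more spread. The fitted log2 change was -1.61 (SE 0.35), leaving 32.6% of the control CPM. From counting error alone, the control level was 3.11 times that of the knockdown (95% interval 2.34 to 4.17). PLEKHA7 no longer passed without shCON replicate 1 (log2 change -1.41) or without shCON replicate 2 (-1.79). Of its exon sequence, 178 bases overlap OR7E14P on the opposite strand, and the strand setting of the counting is unknown. Of 12 epithelial markers, 10 were under 1 FPKM in every library, and CDH1, GRHL2 and RAB25, which define epithelial cells, had 0 counts in all 4. Their summed level was 3.14 and 4.01 FPKM in shCON and 3.58 and 3.12 FPKM in shMAGED2, with overlapping groups.

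PLEKHA4 (ENSG00000105559; chromosome 19, 48837097 to 48868632, minus strand), a PEPP protein that promotes Wnt signalling by acting on the KLHL12 ubiquitin ligase, was nearly level. Its CPM was 20.2 and 19.7 in shCON and 22.4 and 23.6 in shMAGED2. The groups did not overlap, but the difference was small, at 0.20 on the log2 scale (SE 0.13). PLEKHA5 (ENSG00000052126; chromosome 12, 19129752 to 19376400, plus strand) had 19.2 and 20.3 CPM in shCON and 27.9 and 19.9 in shMAGED2. Its groups overlapped, and only shMAGED2 replicate 1 was high. The log2 change of PLEKHA5 was 0.28 (SE 0.19) with all libraries, 0.50 without shMAGED2 replicate 2, where it passed, and 0.01 without shMAGED2 replicate 1.

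The TAPP genes did not pass. PLEKHA1 (ENSG00000107679; chromosome 10, 122374696 to 122442602, plus strand) had 39.7 and 42.7 CPM in shCON and 29.6 and 31.9 CPM in shMAGED2. Its groups did not overlap, the log2 change was -0.42 (SE 0.12), and among the members it lay closest to the threshold on the other side. PLEKHA1 passed when either shMAGED2 library was left out (-0.37 without replicate 1 and -0.48 without replicate 2), without a count filter (-0.42) and with a filter of 5 CPM in 2 libraries (-0.44). PLEKHA2 (ENSG00000169499; chromosome 8, 38901235 to 38973909, plus strand) had 51.5 and 55.8 CPM in shCON and 45.8 and 56.1 CPM in shMAGED2. The shMAGED2 values enclosed both controls, and the log2 change was -0.07 (SE 0.14). Exons of PLEKHA1 and PLEKHA2 overlap an antisense gene over 709 and 650 bases.

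The FAPP genes did not pass either. PLEKHA3 (ENSG00000116095; chromosome 2, 178480468 to 178516462, plus strand) had 41.9 and 46.3 CPM in shCON and 42.0 and 42.9 CPM in shMAGED2, and its log2 change was -0.06 (SE 0.11). Both knockdown values of PLEKHA3 lay between the controls. PLEKHA8 (ENSG00000106086; chromosome 7, 30027404 to 30130483, plus strand) had 39.8 and 41.6 CPM in shCON and 29.5 and 35.1 CPM in shMAGED2. Its knockdown libraries were both lower, with a log2 change of -0.33 (SE 0.13), and it passed without shMAGED2 replicate 2 (-0.46). PLEKHA8 has a processed pseudogene of similar sequence, PLEKHA8P1, which is not among the entries used here, so reads of either copy may have been counted for it.

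**Figure D2:**
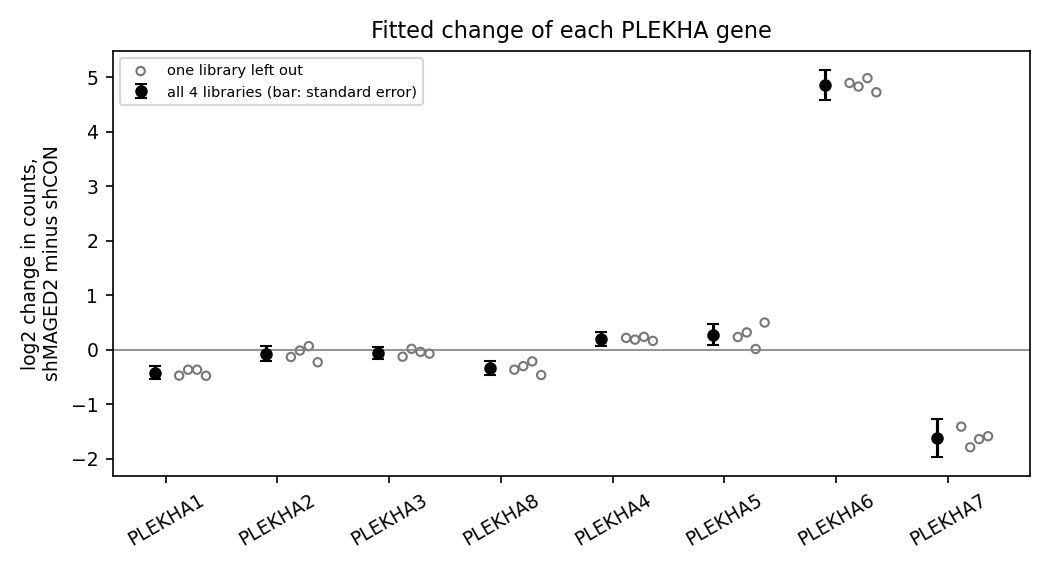
Fitted log2 change of each PLEKHA gene, shMAGED2 minus shCON, with its standard error over all 4 libraries (black) and with each library left out in turn (open circles). PLEKHA6 stays between 4.73 and 4.99 and PLEKHA7 between -1.79 and -1.41. The open circles of PLEKHA2 and PLEKHA3 lie on both sides of 0, and those of PLEKHA5 lie between 0.01 and 0.50.

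The order of levels within the family, compared per length in FPKM, was led by PLEKHA2 in both groups, at 9.80 ± 0.013 in shCON and 9.52 ± 2.65 in shMAGED2 (SD, n = 2). In shCON, PLEKHA1 (6.53 ± 0.20) and PLEKHA4 (6.50 ± 0.19) followed and could not be ordered, since their libraries overlapped. PLEKHA8 (5.75 ± 0.15), PLEKHA5 (4.63 ± 0.20) and PLEKHA3 (3.22 ± 0.36) came next. PLEKHA7 (0.690 ± 0.101) and PLEKHA6 (0.0537 ± 0.0027) were lowest, and PLEKHA6 made up 0.145% of the summed family FPKM. In shMAGED2, PLEKHA4 (7.17 ± 0.61) came second. PLEKHA5 (5.43 ± 1.07) and PLEKHA1 (5.33 ± 0.40) overlapped, and PLEKHA8 followed at 4.26 ± 0.85, within the range of PLEKHA5 in 1 library. PLEKHA6 (3.18 ± 0.38) overlapped PLEKHA3 (3.01 ± 0.15) and held 8.36% of the family sum. PLEKHA7 was lowest at 0.188 ± 0.0045.

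Exchanging the deposited lengths for the union of all annotated exons left PLEKHA2 highest in both groups, PLEKHA6 lowest in shCON and PLEKHA7 lowest in shMAGED2. In shCON it put PLEKHA4 at rank 2, ahead of PLEKHA1 at rank 5. In shMAGED2, PLEKHA6 stood at 1.49 CPM per kilobase of union exon and PLEKHA3 at 2.99, so that the overlap of these genes in FPKM depends on the length used. The ranks of PLEKHA1 and PLEKHA5 fell, with PLEKHA1 at rank 7 in shMAGED2. Summed over the 8 members, the family stood at 36.7 and 37.6 FPKM in shCON and 35.3 and 40.9 FPKM in shMAGED2, so that the sums of the groups overlapped.

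The length of transcript behind the deposited FPKM differed between groups for PLEKHA6. Dividing the counts of a gene by its FPKM and the library total gives the length that links the tables. For 486 genes with a single annotated transcript, this implied length was a median of 1.04 times the annotated one in each library. For PLEKHA6 it was 7877 and 8074 bases in shCON and 3643 and 3946 bases in shMAGED2. The knockdown value was 47.5% of the control value, a log2 difference of -1.07. Among 13933 entries with at least 10 counts in every library, only GTF2IRD2B and FSIP2 had a larger fall in implied length. The first and the last percentile of all entries were -0.39 and 0.32, and over the 483 entries with 10 to 30 counts in both shCON libraries they were -0.72 and 0.48.

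In the annotation, the longest coding transcript of PLEKHA6 has 7401 bases and starts at 204359916, and others have 5704, 5091 and 414 bases. The shCON values thus lay near the longest transcript, and the shMAGED2 values lay between 414 and 5091. Values per transcript were not used here, so which transcripts account for the difference was not tested, and with 15 and 12 control counts the assignment in shCON rests on few reads. Leaving out each library in turn gave log2 differences of -1.13 to -1.02. No other member moved as far. PLEKHA1 went from 6327 and 6540 to 5538 and 5770 bases (-0.19) and PLEKHA7 from 4645 and 4401 to 5210 and 5196 bases (0.20). The remaining members lay between -0.07 and 0.05, and MAGED2 was at 0.007.

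**Figure D3:**
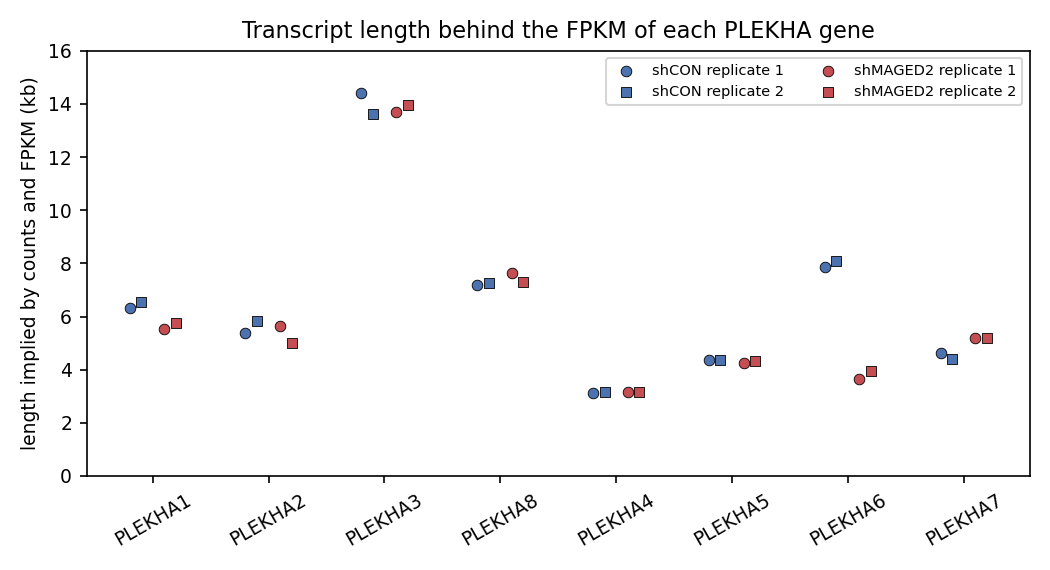
Length in kilobases implied by the counts, the FPKM and the library total for each PLEKHA gene, with circles for replicate 1 and squares for replicate 2. The shCON libraries of PLEKHA6 imply 7877 and 8074 bases and its shMAGED2 libraries 3643 and 3946 bases, and no other member shows a gap of that size.

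Genes around PLEKHA6 were read for their own changes. Since PLEKHA6 was chosen for the largest rise among genes averaging 5 CPM or more, a smaller rise of tested neighbours was fixed in advance. Within 500 kb of either end, 15 other protein-coding genes are annotated, of which 9 had enough counts to be tested. In edgeR 1 of them rose and 0 fell, beside 12.3% and 11.6% of all genes tested. At an unadjusted p under 0.05, 2 rose and 0 fell, and DESeq2 called 2 higher and 0 lower. For these last counts the share of all genes by direction was not taken, so nothing is read from them. The gene that rose was ATP2B4, a calcium pump of the plasma membrane, from 314.2 ± 12.5 to 649.2 ± 81.1 CPM (SD, n = 2; log2 change 1.05, SE 0.11, edgeR Benjamini-Hochberg adjusted p = 0.00293), and it is the tested gene farthest away, at 474.8 kb. The nearest tested gene is PPP1R15B, a regulatory subunit of protein phosphatase 1, 25.7 kb away, at 83.8 ± 3.21 and 78.7 ± 3.55 CPM.

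PIK3C2B, a class II PI 3-kinase 45.0 kb away, had 8.45 and 10.9 CPM in shCON and 15.5 and 11.3 CPM in shMAGED2, and passed only in the fit without shMAGED2 replicate 2 (edgeR adjusted p = 0.196 with all libraries). SOX13, a transcription factor 91.1 kb away on the other side, had a log2 change of 0.84 (SE 0.27, edgeR adjusted p = 0.0678), and it passed in DESeq2, without a count filter, with the replicate number as a block and when either shMAGED2 library was left out. MDM4, a regulator of p53, had one of -0.03 (SE 0.12). Between PLEKHA6 and SOX13, GOLT1A and KISS1 had 0 counts in all 4 libraries and ETNK2 had 3 counts in 1 library. These 3 genes were therefore at or under the limit of detection in both groups.

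**Figure D4:**
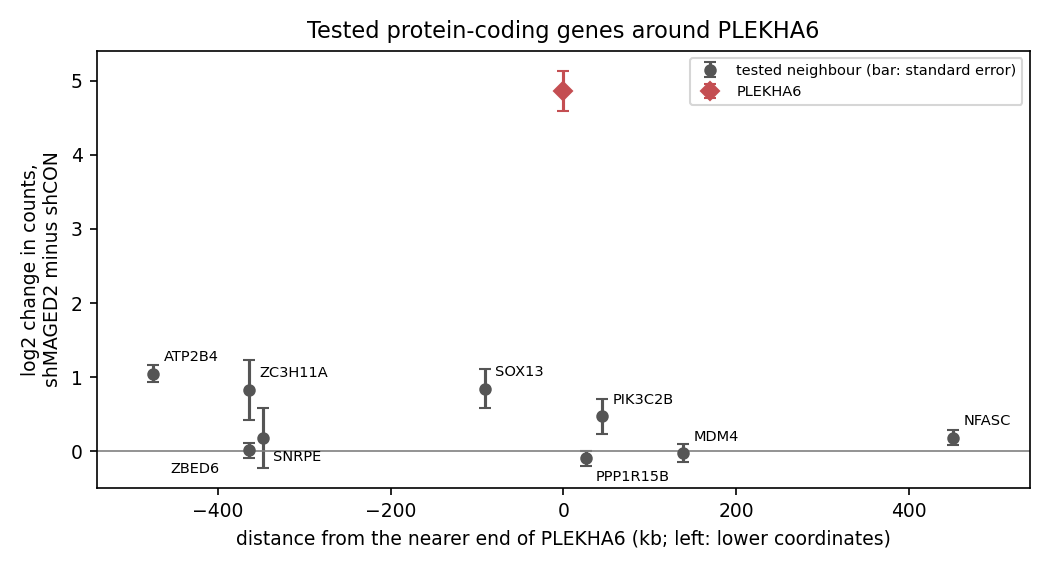
Fitted log2 change, with standard error, of PLEKHA6 (diamond) and of the 9 tested protein-coding genes around it, by distance in kilobases from the nearer end of PLEKHA6. The neighbours lie between -0.09 and 1.05, below the 4.86 of PLEKHA6, which was chosen for its rise.

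The profile of PLEKHA6 over the 4 libraries was closest to that of 5 entries, by the distance between log2 CPM centred on each gene's own mean, among 13396 other genes averaging 1 CPM or more. These were the gene model newGene_3000 (distance 0.948), the ephrin receptor EPHA2 (1.25), the synaptotagmin SYT13 (1.26), the interleukin-22 receptor subunit IL22RA1 (1.34) and the model newGene_6245 (1.44). EPHA2 had 86 and 47 counts in shCON and 631 and 915 in shMAGED2, so that its shMAGED2 replicate 2 was higher in CPM, as for PLEKHA6. The same held for SYT13 (3.97 and 5.31 CPM in shMAGED2 replicates 1 and 2). Replicate 2 was lower for newGene_3000 (4.99 and 3.40 CPM) and IL22RA1 (4.35 and 2.97 CPM), and newGene_6245 was nearly level (10.4 and 10.5 CPM). SYT13 had 2 and 0 counts against 117 and 195, and IL22RA1 had 0 and 0 against 128 and 109. All 5 entries were higher in both shMAGED2 libraries, which their choice by nearness to PLEKHA6 fixed in advance. The distance rests on 4 libraries.

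Related genes were read from 5 lists of 126 symbols. Of 20 tested other PLEKH genes, which share the PH domain, 1 rose and 1 fell (edgeR, 10.0% called beside 23.9% of all genes, median log2 change -0.08). PLEKHM1, a lysosomal adaptor, rose from 87.8 ± 3.32 to 135.7 ± 1.18 CPM (adjusted p = 0.00741), although a duplicated pseudogene makes its count uncertain. PLEKHG4, a guanine nucleotide exchange factor, fell from 34.1 ± 0.91 to 16.7 ± 5.26 CPM (edgeR adjusted p = 0.0248). Fewer of the list passed when either shCON library was left out and more when either shMAGED2 library was, as over all genes.

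Among 22 tested enzymes that make or remove the lipids of PI 3-kinase, which TAPP proteins read, 3 rose and 3 fell (edgeR, 27.3% called, median -0.10). SYNJ2, an inositol 5-phosphatase, rose from 89.2 ± 0.54 to 157.8 ± 12.4 CPM (edgeR adjusted p = 0.00425). INPP5E, a ciliary 5-phosphatase, and PIK3R4, a regulatory subunit of the class III kinase, rose by 0.54 (SE 0.14) and 0.40 (SE 0.11) on the log2 scale. INPPL1, also named SHIP2, which forms phosphatidylinositol 3,4-bisphosphate, fell from 106.7 ± 3.85 to 79.0 ± 4.80 CPM (edgeR adjusted p = 0.0295). PIK3R1, a regulatory subunit of class I kinases, had a log2 change of -0.46 (SE 0.13, edgeR adjusted p = 0.0492). Fewer enzymes were called without either shCON library and more without shMAGED2 replicate 2, as over all genes. Of the enzymes named, only SYNJ2 passed when either shCON library was left out.

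Of 24 tested genes of phosphatidylinositol 4-phosphate and Golgi lipid transfer, the setting of the FAPP proteins, 2 rose and 6 fell (edgeR, 33.3% called, median 0.02). The ceramide transporter, listed as COL4A3BP, fell from 158.7 ± 14.5 to 95.2 ± 3.78 CPM (edgeR adjusted p = 0.00698). UGCG, which makes the glucosylceramide that PLEKHA8 carries, fell from 153.6 ± 3.89 to 83.8 ± 27.0 CPM (edgeR adjusted p = 0.0336), with shMAGED2 libraries at 64.8 and 102.9 CPM. INPP5B, a phosphatase, fell by 0.78 on the log2 scale (SE 0.12). GLTP, a cytosolic glycolipid transfer protein, rose by 0.62 (SE 0.12) and PITPNB, a phosphatidylinositol transfer protein, by 0.37 (SE 0.09). Fewer genes of this list were called without either shCON library and more without shMAGED2 replicate 2, as over all genes. COL4A3BP passed without shCON replicate 1, but it did not pass in the 3 fits on FPKM, where its log2 change was -0.43 to -0.42.

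Other PH domain proteins that bind PI 3-kinase lipids were mixed, with 4 that rose and 2 that fell of 23 tested (edgeR, 26.1% called, median 0.08). CYTH4, an exchange factor for ARF GTPases, rose from 3.43 ± 1.32 to 12.5 ± 0.26 CPM (edgeR adjusted p = 0.00959). Its relatives CYTH2 and CYTH3 fell by 0.76 (SE 0.14) and 0.47 (SE 0.12) on the log2 scale. MAPKAP1, a subunit of mTOR complex 2, rose from 220.4 ± 6.54 to 393.7 ± 9.73 CPM (edgeR adjusted p = 0.00257). The kinases AKT1 and AKT2, which bind these lipids and belong to the pathway in the series title, did not pass. Their log2 changes were 0.01 (SE 0.12) and 0.18 (SE 0.11). These are RNA levels, and the activity of the pathway was not measured. The log2 change of AKT1 was -0.04 with library size alone as scaling. AKT2 passed without shMAGED2 replicate 2 (0.28). Only CYTH4 and MAPKAP1 of the list passed when either shCON library was left out. More passed without shMAGED2 replicate 2, as over all genes.

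Of 23 tested junction proteins and known partners of PLEKHA proteins, 0 rose and 3 fell (edgeR, 13.0% called, median 0.01). At an unadjusted p under 0.05, 1 was higher and 6 were lower, and DESeq2 called 1 higher and 3 lower. The share of all genes by direction was not taken for either, so nothing is read from these counts. SNTB1, a syntrophin of the kind that binds TAPP1, fell from 56.7 ± 0.74 to 11.3 ± 1.47 CPM, and it fell in each fit with 1 library left out (edgeR adjusted p = 0.000799 with all). PTPN13, a phosphatase that binds TAPP proteins, fell from 61.8 ± 0.91 to 33.1 ± 2.56 CPM (edgeR adjusted p = 0.00486). More of the list passed when either shMAGED2 library was left out, as over all genes. SNTB1 and PTPN13 were the genes of the list that passed when either shCON library was left out.

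**Figure D5:**
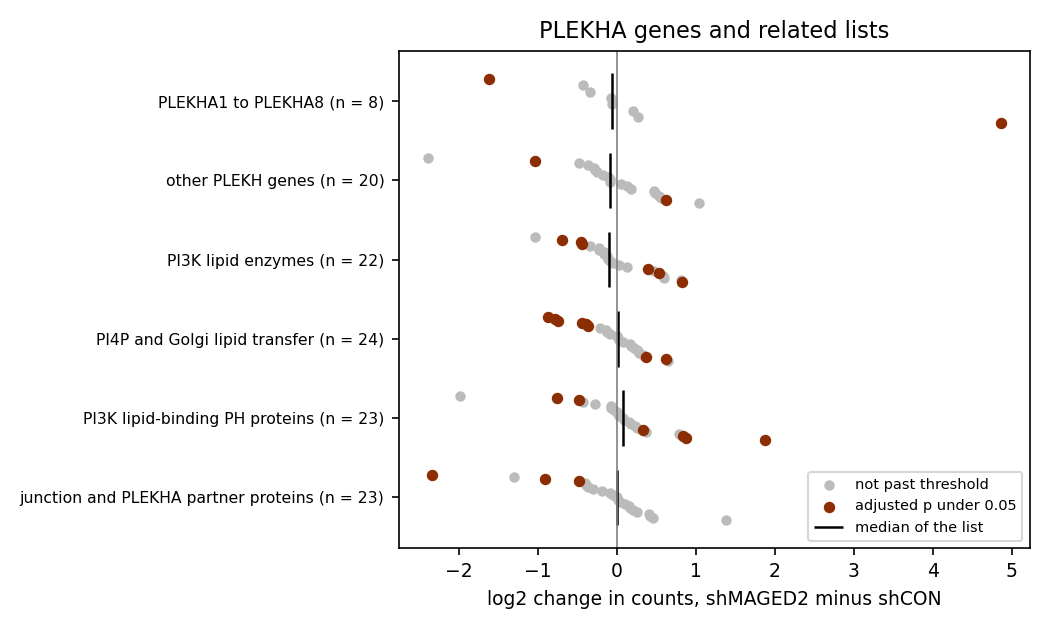
Log2 change in counts of each tested gene in the PLEKHA family and in the 5 related lists, shMAGED2 minus shCON, with genes at an adjusted p under 0.05 in brown and the median of each list as a line. All 6 medians lie between -0.10 and 0.08. PLEKHA6 at 4.86, chosen for its rise, lies to the right of every gene of the related lists.

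Markers of cell types were read in FPKM. Of 8 glioma markers, VIM, CD44 and FN1 were at 119 FPKM or more in every library. GFAP, S100B and SOX2, markers of astrocytes and neural stem cells, were under 1 FPKM in cells labelled glioblastoma. Endothelial markers summed to at most 0.659 FPKM. Of the immune markers, CD68 was at 199 FPKM or more in every library, while PTPRC and CD3E reached at most 0.149 FPKM and AIF1 was listed at 0.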

How the data were processed

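RNA of 4 U87-MG libraries, 2 shCON and 2 shMAGED2, was assigned to groups by sample titles and to columns by sample descriptions. Both kinds of values were deposited: raw counts of each gene as whole numbers, and FPKM that the authors computed. The submitters' processing notes name HISAT2, StringTie, SAMtools and hg38. In the sources used here, the annotation, gene lengths, strand setting and treatment of multiply matching reads are not given.

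Counts were tested in edgeR 4.0.16 (R 4.3.3) with filterByExpr, TMM scaling and a robust quasi-likelihood fit on group, two-sided, with Benjamini-Hochberg adjustment over 15293 genes at 0.05. Standard errors come from the F statistic. CPM is relative to the TMM-scaled total of the tested genes. The fit was tested on simulated data. Alternatives were DESeq2 1.42.0, limma 3.58.1 on log2(FPKM + 1) and log2(FPKM + 0.1), other scalings and filters, the replicate number as a block, and fits that leave out 1 library. Leaving out libraries for the implied length was added after seeing the data.

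The members and gene lists were chosen with earlier results of these data known. Beside the members, MAGED2, AKT1 and AKT2, the text names up to 3 genes per direction and list that passed, averaged 5 CPM or more and did not overlap between groups, the 5 profiles nearest to PLEKHA6, and tested coding genes within 500 kb of it. Some genes that this rule picks are not reported here. Coordinates are from GENCODE 29 on hg38, in which all 19974 Ensembl identifiers of the table were found; 3470 further entries are models without one. Promoter windows are RefSeq's. Counting intervals and limits cover counting error only.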

Additional observations from a re-analysis of the deposited data

How the results depend on the processing

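The direction of PLEKHA6, PLEKHA7, PLEKHA1, PLEKHA8, PLEKHA4 and PLEKHA5 was kept in every alternative that gave a value, with PLEKHA6 between 1.99 on log2(FPKM + 1), which compresses low values, and 4.99. Nothing rests on the calls of PLEKHA6, on which the family was chosen. PLEKHA7 passed in 7 of 10 and gave no value in the FPKM fits with a minimum of 1 and in the filter of 5 CPM. The number of members called, 2 of 8, was 1 in each of the 3 FPKM fits (log2(FPKM + 1), with and without a minimum, and log2(FPKM + 0.1)), and 1 to 5 with a library left out. All genes called were 1359 on unfiltered log2(FPKM + 1), against 3649, and 1100 to 7447 with a library left out. Fits with a lone library assume that it varies like the other group. On unfiltered log2(FPKM + 1), the 5 lists gave 0 other PLEKH genes, 2 PI 3-kinase enzymes, 0 Golgi genes and 2 PH domain proteins. On log2(FPKM + 0.1) the Golgi list gave 5, and with a filter of 5 CPM the junction list gave 5. With a library left out, the lists gave 0 to 8, 1 to 11, 0 to 17, 2 to 12 and 2 to 16 calls in the order of the text, and MAGED2 changed by -3.31 to -3.03.

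With the replicate number as a block, 3336 genes and 2 members were called, and the Golgi list gave 5. Deviations of same-numbered libraries correlated at -0.02 over genes, and those of crossed libraries at 0.02. With 2 libraries per group the crossed value mirrors the other, so whether the numbers pair the libraries was not tested. Per kilobase of union exon length, PLEKHA6 stood at 1.49 CPM in shMAGED2, against 3.18 FPKM. Of 20 called genes that the naming rule picked in the related lists, 14 and 15 missed the threshold without shCON replicate 1 and 2, and 0 changed direction. Directions that turned belonged to genes that did not pass with all libraries. With a library left out, PLEKHA3 ranged from -0.128 to 0.017 (turned without shCON replicate 2), PLEKHA2 from -0.23 to 0.066 (without shMAGED2 replicate 1), AKT1 from -0.124 to 0.138, MDM4 from -0.097 to 0.043, ZBED6 from -0.052 to 0.081 and SNRPE from -0.646 to 0.701, passing in opposite directions without shMAGED2 replicate 2 and 1. AKT1 was -0.007 with a filter of 5 CPM and -0.042 with library size alone, and ZBED6 was -0.003 and -0.046. On log2(FPKM + 0.1), NFASC was -0.248, SNRPE -0.025 and ZBED6 -0.036. On log2(FPKM + 1), with and without a minimum, they were -0.235, -0.016 and -0.034. The cause was not tested. Depth limits the fold of PLEKHA6, with 27 counts over both shCON libraries.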

Other observations

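GTF2IRD2B, a transcription factor gene with near-identical copies, and FSIP2, a sperm fibrous sheath gene, were the entries whose implied length fell further than that of PLEKHA6. They were named after their values were seen. GTF2IRD2B went from 2874 and 2847 bases to 1111 and 1198, with 460 and 349 counts in shCON and 185 and 278 in shMAGED2, so that unlike PLEKHA6 it did not gain counts. FSIP2 had 32 and 36 counts in shCON and 14 in each shMAGED2 library, with 8110 and 4612 bases in the latter pair. Of all 13933 entries, 6 had an implied length at or below 50% of control, a log2 difference of at most -1, and PLEKHA6 was the 1 among the 483 with 10 to 30 counts in both shCON libraries.

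Among cell type markers, named after their values were seen, the glioma marker NES, an intermediate filament gene of neural progenitors, rose from 5.19 ± 0.66 to 19.0 ± 0.39 CPM (SD, n = 2; edgeR Benjamini-Hochberg adjusted p = 0.002). OLIG2, a transcription factor of the oligodendrocyte lineage, fell from 5.46 ± 0.43 to 1.99 ± 0.31 CPM (edgeR adjusted p = 0.0158). ESRP1, a splicing regulator of epithelial cells, was at 0.831 and 1.06 CPM in shCON and at 0.102 and 0 CPM in shMAGED2. It was the only epithelial marker called (edgeR adjusted p = 0.0408). Its shMAGED2 values, of 3 and 0 counts, lay at or under the limit of detection. Of the other tested epithelial markers, KRT18, KRT8 and ESRP2 were higher (log2 changes 1.72, 1.09 and 1.07). CLDN4, EPCAM and CLDN7 were lower (-0.89, -0.87 and -0.87).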
